A study of Arabidopsis thaliana with 48 samples.

Results

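Seedlings of *Arabidopsis thaliana* lacking both *HSFA2* and *HSFA3* were compared 28 h after a heat acclimation treatment (ACC) with seedlings of the same genotype that had received no heat. The libraries were taken by their labels, genotype *hsfa2 hsfa3* with treatment ACC+28h on the heated side and treatment NTC on the unheated side, which gave 6 of the 48 libraries of the series, 3 biological replicates per side. The series holds RNA-seq of Col-0 (Col), both single mutants and the double mutant, each unheated (no HS) and sampled 4 h, 28 h or 52 h into recovery from ACC. The seedlings grew in 16 h light at 23 °C and 8 h dark at 21 °C, and ACC was given to 4 d-old seedlings in steps of 1 h at 37 °C, a rest of 90 min at 23 °C, and 45 min at 44 °C.

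Both sides of the comparison carried the alleles *hsfa2-1* and *hsfa3-1* in the Col-0 background, so the losses of *HSFA2* and *HSFA3* were shared and heat was the labelled difference. The double mutant is represented by 1 line, and the RNA came from whole seedlings. The age and the time of day at which the NTC seedlings were harvested are not given in the sources used here, so heat, age and time of day cannot be told apart in the contrast. Besides the 6 libraries, the double mutant at 4 h and 52 h and Col without heat and at 28 h, 3 libraries each, were used to place the 28 h values.

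Heat shock factors (HSFs) are transcription factors that bind as trimers to heat shock elements, arrays of inverted GAA units in the promoters of chaperone genes. The HSFA1 proteins start the response, whereas HSFA2 and HSFA3 are strongly induced by heat, HSFA3 under the control of the DREB2 factors. Small heat shock proteins (small HSPs) hold unfolding proteins in a soluble state, HSP70 and HSP90 refold them and HSP101 pulls them out of aggregates. Some heat-induced genes stay active for days after a mild heat stress, a state called heat stress memory, for which HSFA2 and HSFA3 are known.

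The promoters of 6 heat or clock genes that are followed below held a perfect heat shock element of 3 alternating units within 250 bases before the annotated start, and these sites are shown because HSFs other than the 2 that were lost can bind the same element. The motif is GAA, NN, TTC, NN, GAA in a row or its reverse complement TTC, NN, GAA, NN, TTC, where N is any base; it is in capitals, with flanking bases in lower case, 5′ to 3′ on the strand of the gene, from RefSeq for assembly TAIR10.1.
*AT1G53540*, chr1:19980240-19980264, plus strand: acaccaGAAACTTCTTGAAagcacc
*HSFA2*, chr2:11135530-11135554, plus strand: agtaacGAAGTTTCTGGAAcattgt
*GolS1*, chr2:19370560-19370584, minus strand: cccactTTCCAGAACTTTCacggtt
*HSP17.4*, distal, chr3:16984948-16984972, minus strand: aacataGAAGCTTCTTGAAgccacc
*HSP17.4*, proximal, chr3:16984868-16984891, minus strand: aaacctGAAATTTCAAGAAacttg
*PRR7*, chr5:642086-642110, minus strand: tggaacTTCTCGAACGTTCgggacc
*DREB2A*, chr5:1602035-1602059, plus strand: gcgtgtTTCGAGAAGATTCgggagg
*HSP17.4* held 2 such sites, 87 to 99 and 6 to 18 bases before its start. The site of *AT1G53540*, a class I small HSP gene, lay 41 to 53 bases before its start. A match describes letters in this window, and these libraries hold no measure of binding. Whether other HSFs acted on these genes was not tested.

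The 6 libraries held between 32954646 and 33693480 read pairs assigned to protein-coding genes, within the 27561060 to 33861060 of the whole series, so that 3 counts, the limit that a count of 0 allows, stood for 0.085 to 0.0888 CPM. CPM are counts relative to the library total, here on library sizes scaled by trimmed mean of M-values (TMM), and are given in the order of replicates 1, 2 and 3; fold changes are log2 differences with their standard error. CPM were not divided by transcript length, so levels are compared between samples and not between genes. No pair of replicates agreed within sampling noise. On the second principal component of the 12 double mutant libraries (11.3% of the variance), replicate 2 was the 28 h library nearest to NTC. It stood at 10.83 against 43.15 for replicate 1 and 34.82 for replicate 3, with NTC between -60.51 and -28.84. Replicate 2 was likewise the lowest library on this component in NTC (-60.51), at 4 h (-27.02) and at 52 h (1.24). A low place was thus shared by the libraries numbered 2 and was not particular to 28 h. Counting did not state a strand setting, so the values of genes that overlap another annotated gene are uncertain, and these include *HSFA3*, *HSP17.4*, *HSP101*, *HSA32*, *GolS1*, *GolS4*, *DREB2A*, *AT3G09440*, *PUM9*, *AT3G54500*, *BHLH101*, *bHLH38*, *TT4*, *GL3*, *SARD1*, *LHCB2.3*, *EXPA18*, *DELTA-TIP* and *SNRK2-8*.

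The 2 mutated genes were read first. *HSFA2* gave 0.234, 0.901 and 0.414 CPM in NTC and 2.1, 0.654 and 0.497 CPM at 28 h in the double mutant, overlapping ranges with a log2 change of 1.06 ± 0.82 (adjusted p = 0.37). In Col it stood at 1.08, 1.67 and 1.31 CPM without heat and at 16.1, 6.58 and 7.36 CPM at 28 h, above every double mutant library of the same treatment. *HSFA3* gave 2.11, 3.40 and 3.05 CPM in NTC and 4.45, 3.33 and 5.08 CPM at 28 h (0.59 ± 0.21, adjusted p = 0.041, under the fold limit), against 12.3, 11.7 and 8.57 CPM in Col at 28 h. Reads from both loci persisted in the mutant, and at 4 h reached 65.7, 62.6 and 58.3 CPM for *HSFA2* and 221, 205 and 220 CPM for *HSFA3*. The *hsfa3-1* allele is a SALK insertion, and a gene-level count does not show whether such transcripts are complete.

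Of 21107 protein-coding genes tested, 480 were called higher (2.27%) and 714 lower (3.38%) at 28 h than in NTC, 1194 in either direction (5.66%), a call being an adjusted p under 0.05 with an absolute log2 change above 1 by the quasi-likelihood test of edgeR (Benjamini-Hochberg adjusted). Without the fold limit 2069 genes were higher and 2139 lower, so most genes past the p threshold changed by less than the fold limit. The median log2 change was 1.72 among genes called higher and -1.41 among those called lower, and 205 of the former exceeded 2 whereas 121 of the latter fell below -2. Among the genes called higher, 132 had a mean under 1 CPM at 28 h. At an unadjusted p under 0.05, 3654 of the 21107 genes were higher and 3507 lower. List counts at that threshold are read beside these. The 3 libraries of one side lay entirely above the 3 of the other for 1149 of the called genes, and for 37.2% of all genes tested. Without 28 h replicate 1 there were 308 higher and 464 lower calls, and the lower calls numbered 467 without 28 h replicate 3 and 389 without NTC replicate 2.

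Of the 18 gene lists read here, the small HSPs stood furthest above the unheated level. Of the 19 cytosolic and organellar members, all of them tested, 12 rose and 0 fell at 28 h, with a median log2 change of 2.46 against 0.02 over all genes; leaving out 1 library gave 10 to 13. *HSP18.2*, a class I cytosolic member, gave 1.14, 1.83 and 0.918 CPM in NTC and 91.9, 129 and 118 CPM at 28 h, groups far apart (6.44 ± 0.51, adjusted p = 1.5e-10). For the class II member *HSP17.6A* the values were 0.439, 0.378 and 0.207 CPM in NTC and 43.7, 12.9 and 15.3 CPM at 28 h (6.11 ± 0.90, adjusted p = 1.4e-05). Here, as in several heat genes, 28 h replicate 1 was the highest library, yet the lowest 28 h library was still far above every NTC library. *HSP17.4* went from 0.498, 0.698 and 0.266 to 34.2, 9.84 and 16.2 CPM (5.35 ± 0.89, adjusted p = 7.8e-05), and *AT1G53540* from 0.703, 0.436 and 0.178 to 30.7, 17.0 and 20.9 CPM (5.69 ± 0.88, adjusted p = 2.7e-05). *HSP17.6II*, also of class II, rose from 0.410, 0.465 and 0.266 to 18.1, 9.92 and 10.4 CPM (5.06 ± 0.81, adjusted p = 4.5e-05). The strict motif was found in only 2 of the 12 small HSPs called higher, the class I genes *AT1G53540* and *HSP17.4* printed above. Sites were printed for small HSPs and named genes only, and many of these were named for their calls, so the printed sites are no support. *HSP18.2* was among the risers without the strict motif in their 250 bases. The study nonetheless found HSFA2 and HSFA3 by chromatin immunoprecipitation at promoter sequence of *HSP18.2* that holds heat shock elements. Absence of the strict motif from this window therefore does not mean that a promoter lacks an element.

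**Figure D1:**
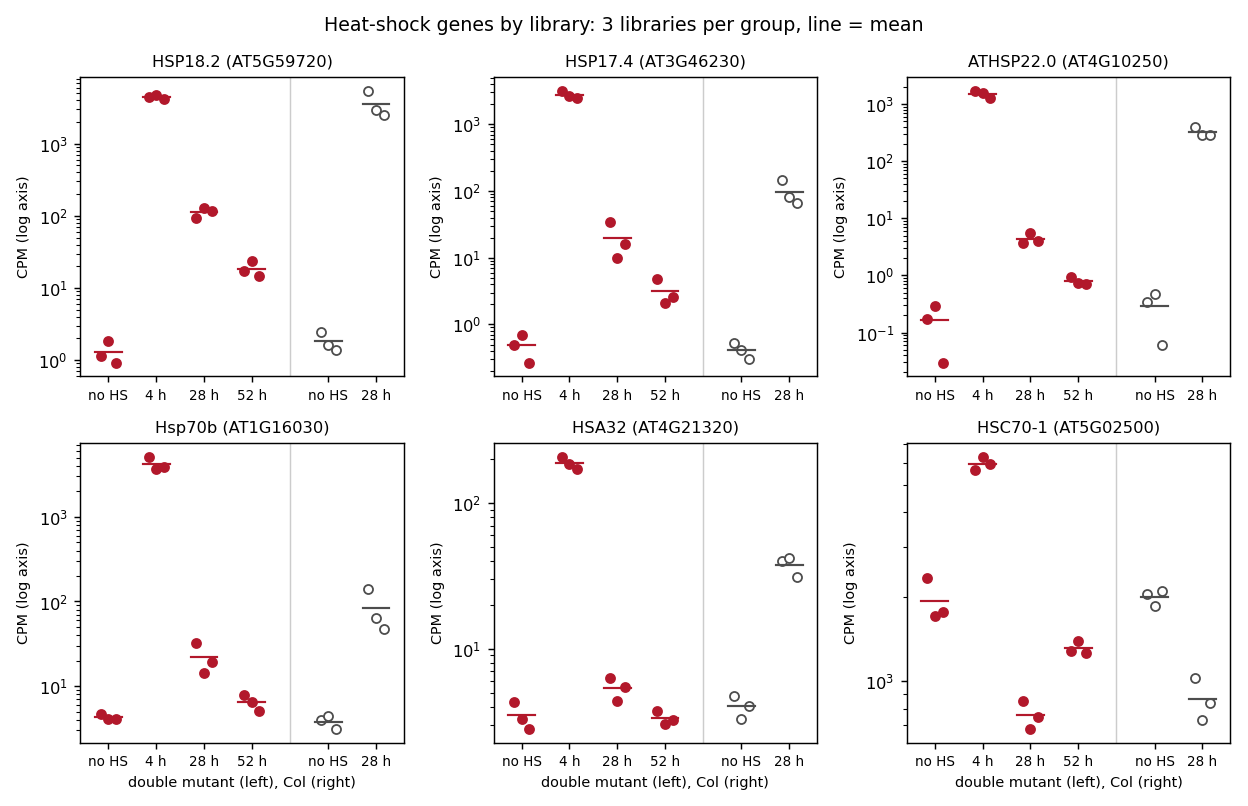
Levels of 6 chaperone genes in CPM (log axis), 1 point per library, with lines at the group means; filled points are unheated, 4 h, 28 h and 52 h samples of *hsfa2 hsfa3*, open points Col without heat and at 28 h. *HSP18.2*, *HSP17.4*, *ATHSP22.0* and *Hsp70b* at 28 h lie between the unheated and the 4 h points of the double mutant, whereas *HSC70-1* lies below its unheated points at 28 h (676 to 852 CPM against 1713 to 2331 CPM).

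Small HSPs of the organelles rose as well. *ATHSP22.0*, the small HSP of the endoplasmic reticulum (ER), gave 0.176, 0.291 and 0.0296 CPM in NTC and 3.66, 5.57 and 3.97 CPM at 28 h (4.70 ± 0.81, adjusted p = 0.00012). The mitochondrial *HSP23.6-MITO* reached 6.77, 3.64 and 4.85 CPM from 0.176, 0.378 and 0.414 CPM (log2 change 3.96). *HSP21* of the chloroplast, one of the longest-lasting small HSPs after heat in the wild type, gave 1.08, 1.08 and 0.994 CPM at 28 h, from 0.0878, 0.145 and 0.0296 CPM in NTC (3.52 ± 0.93, adjusted p = 0.0074). The other called members were *AT1G07400* (3.43), *AT2G29500* (2.46), *AT1G52560* (2.2) and *AT1G59860* (1.59). The 7 members not called ran from -0.28 for *AT2G19310* to 0.88 for *AT1G54050* (adjusted p = 0.036, under the fold limit). Summed over the list, small HSP transcripts came to 89.87 to 92.64 CPM in NTC and 310.8 to 402.8 CPM at 28 h, with 2.991e+04 to 3.676e+04 CPM at 4 h. For the 12 members that rose, the 28 h mean was 0.145% (*HSP21*) to 2.56% (*HSP18.2*) of the 4 h mean, so the level left at 28 h was a small remainder of the early response.

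Among the larger chaperones more genes fell than rose. Of 26 HSP100, HSP70, HSP90 and co-chaperone genes, 1 rose and 5 fell, with a median of -0.21. *HSC70-1*, the constitutive cytosolic HSP70, gave 2331, 1713 and 1765 CPM in NTC and 852, 676 and 748 CPM at 28 h, with no overlap (-1.35 ± 0.11, adjusted p = 1.5e-10). Its relative *Hsp70-2* fell from 39.2, 40.7 and 31.4 to 10.8, 12.3 and 8.04 CPM (-1.84 ± 0.29, adjusted p = 3.1e-05), and *AT3G09440*, a further HSP70 family gene, from 405, 339 and 343 to 189, 115 and 91.2 CPM (-1.46 ± 0.22, adjusted p = 1.8e-05). Both called HSP90 genes encode constitutive cytosolic HSP90. *HSP81-3* gave 409, 312 and 310 CPM in NTC and 107, 126 and 98.5 CPM at 28 h (-1.64 ± 0.14, adjusted p = 1.2e-09), and *HSP81-2* 455, 363 and 376 CPM against 172, 201 and 163 CPM (-1.16 ± 0.15, adjusted p = 3.1e-06). In none of the 5 did the 2 sides overlap. Their 28 h means were 1.55% (*AT3G09440*) to 12.7% (*HSC70-1*) of their 4 h means, so the low level at 28 h followed a high one at 4 h. The summed level of the list was lower at 28 h (3268 to 3844 CPM) than in NTC (5119 to 6816 CPM).

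*Hsp70b*, the cytosolic HSP70 that is almost silent without stress, was the single riser, from 4.66, 4.1 and 4.09 to 32.7, 14.4 and 19.1 CPM (2.36 ± 0.64, adjusted p = 0.009). Without 28 h replicate 1 it kept a log2 change of 1.96 and missed the threshold (adjusted p = 0.0586). Other well-known heat genes did not pass. *HSA32*, a heat-induced protein needed for long-lasting acquired thermotolerance, gave 4.33, 3.31 and 2.81 CPM in NTC and 6.32, 4.41 and 5.49 CPM at 28 h (0.63 ± 0.22, adjusted p = 0.04, under the fold limit). The disaggregase gene *HSP101* gave 19.5, 14.6 and 14.4 against 48.4, 15.72 and 16.69 CPM (log2 change 0.74, adjusted p = 0.17), with 28 h replicate 1 alone far above NTC. The same library stood out in *HSP70*, at 179 CPM beside 55.1 and 57.8 CPM, against 124, 70.3 and 60.6 CPM in NTC (0.20, adjusted p = 0.76), and leaving it out turned that change to -0.59. At 28 h, *HSP101* stood at 0.606% and *Hsp70b* at 0.522% of their 4 h means.

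Among the HSF genes themselves no member was called. Of 21 HSFs 19 were tested, 0 rose and 0 fell by edgeR and by DESeq2, while 4 higher and 2 lower had an unadjusted p under 0.05; the median log2 change was 0.30. *HSF3*, one of the *HSFA1* genes, changed by 0.29 and *HSFA1D* by -0.11. Of the *DREB2* genes *DREB2C* and *DREB2A* rose, and *DREB2B* stayed under the fold limit (0.79 ± 0.28, adjusted p = 0.042). *DREB2C* gave 2.05, 1.37 and 2.28 CPM in NTC and 12.9, 5.20 and 7.80 CPM at 28 h (2.18 ± 0.38, adjusted p = 0.00014), and *DREB2A*, whose site is printed above, 5.83, 6.40 and 6.04 against 18.0, 9.41 and 12.3 CPM (1.12 ± 0.39, adjusted p = 0.038), with no overlap in either gene. They were 2 of the 10 heat regulators that were listed, none of which fell, and the coactivator *MBF1C*, at 14.8, 17.5 and 14.1 CPM in NTC and 18.0, 11.9 and 13.6 CPM at 28 h (-0.09, adjusted p = 0.83), had overlapping ranges. Without 28 h replicate 1, 28 h replicate 3 or any 1 of the NTC libraries, only 1 of the 10 was called, the call of *DREB2A* being lost in those 5 fits (adjusted p between 0.0638 and 0.206).

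**Figure D2:**
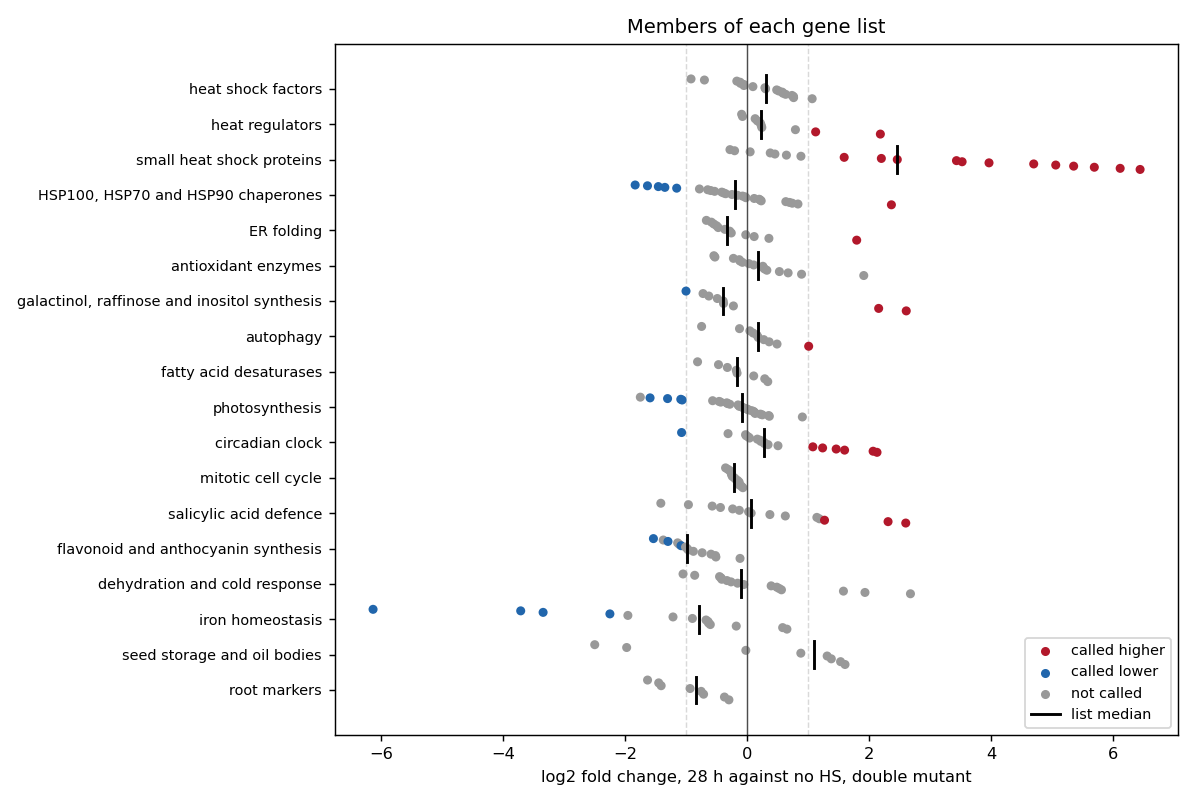
Log2 change at 28 h after ACC against no heat in *hsfa2 hsfa3* for the tested members of 18 gene lists, 1 point per gene (red, called higher; blue, called lower; grey, not called), with a black bar at each list median and dashed lines at -1 and 1. The small HSPs are the list with the highest median (2.46), and iron homeostasis, flavonoid and root genes have medians of -0.79, -0.99 and -0.85.

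In the ER folding list 1 of 12 genes was called. *BIP3*, the stress-induced member of the luminal HSP70s, rose from 0.146, 0.262 and 0.237 to 0.794, 0.597 and 0.877 CPM (1.79 ± 0.42, adjusted p = 0.0026). *BIP2*, a constitutive member, pointed the other way, at 360, 273 and 277 CPM in NTC and 176, 221 and 174 CPM at 28 h. Its change (-0.67 ± 0.16, adjusted p = 0.0033) lay beyond the replicate spread and under the fold limit. Of the 12, 8 had an unadjusted p under 0.05 with a lower level, as did 3507 of all 21107 genes. Of 16 antioxidant enzyme genes edgeR called 0, with 5 higher and 1 lower at an unadjusted p under 0.05, and DESeq2 called 1 higher. *APX2*, a cytosolic ascorbate peroxidase that is strongly heat-induced in the wild type, gave 0.0878, 0.0872 and 0.0296 CPM in NTC and 0.170, 0.313 and 0.321 CPM at 28 h (1.91 ± 0.84, adjusted p = 0.10), a few reads per library on either side. *CAT1*, a catalase, gave 56.5, 43.3 and 48.8 against 102, 79.3 and 93.8 CPM (0.89 ± 0.19, adjusted p = 0.0012, under the fold limit). Autophagy genes stayed near the background, with 1 of 10 called: *ATG8B*, whose product coats autophagosomes, gave 10.7, 11.3 and 10.4 against 26.4, 17.0 and 21.6 CPM, and at 1.01 ± 0.18 (adjusted p = 0.00024) it lay at the fold limit itself and was not called by DESeq2, under the other filters or scaling, or with the block.

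Synthesis of galactinol and raffinose, sugars that protect membranes and proteins, split by gene. Among 9 genes of the list 2 rose and 1 fell. *GolS1*, the heat-inducible galactinol synthase, gave 5.45, 2.85 and 3.37 CPM in NTC and 26.6, 17.83 and 26.7 CPM at 28 h (2.61 ± 0.34, adjusted p = 2.1e-06), and its relative *GolS4* 0.381, 0.262 and 0.355 against 1.36, 1.28 and 1.84 CPM (2.15 ± 0.69, adjusted p = 0.025). *MIPS1*, which makes the inositol that these enzymes use, fell from 263, 174 and 189 to 97.0, 109 and 107 CPM (-1.0 ± 0.20, adjusted p = 0.00072). All 28 h values lay outside the NTC range in the 3 genes. Without 28 h replicate 1, 28 h replicate 3 or any 1 of the NTC libraries only 1 rise was left, and *MIPS1* was not called without 28 h replicate 1 or NTC replicate 1 or with the replicate block.

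Beyond the heat lists, the steepest rises were in genes with almost no reads in NTC, and 3 of them leaned on 1 library. *ELI3-2*, of the cinnamyl alcohol dehydrogenase family, gave 0, 0.0291 and 0.0296 CPM in NTC and 26.4, 0.313 and 4.53 CPM at 28 h. Summed counts were 2 and 1096, a ratio of 536 with a counting interval from 148 to 4430 (adjusted p = 0.0099). *SUC7*, of the sucrose transporter family, had no counts in NTC and gave 3.97, 0.0853 and 0.760 CPM at 28 h, at least 55.1-fold higher than the 3 counts over the group that a count of 0 allows (adjusted p = 0.01). *AOX1D*, an alternative oxidase of mitochondria, gave 0.0293, 0 and 0 CPM against 5.58, 0.426 and 1.26 CPM, a ratio of 249 (44.3 to 9880; adjusted p = 0.013). In all 3 genes 28 h replicate 1 was highest and replicate 2 lowest, and without replicate 1 the adjusted p rose to 0.11, 0.111 and 0.0929 in that order; without NTC replicate 2, *AOX1D* also missed the threshold (0.0636). *PUM9*, a PUF-type RNA-binding protein, was even across the 28 h libraries, at 1.22, 0.967 and 0.906 CPM against 0.0293, 0.0291 and 0 CPM in NTC (ratio 52.8, interval 14.3 to 441; adjusted p = 5.3e-05).

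Some genes were higher at 28 h than at both 4 h and no heat. *PRX52*, a class III peroxidase of the cell wall, gave 0.322, 0.407 and 0.148 CPM in NTC, 0.171, 0.229 and 0.101 CPM at 4 h and 4.85, 4.21 and 3.59 CPM at 28 h, a log2 change of 3.83 ± 0.39 against NTC (adjusted p = 2.7e-08) and of 4.62 against 4 h. *FRO6*, a ferric chelate reductase of shoots, was below its unheated level at 4 h (1.61, 1.02 and 1.62 CPM) and above it at 28 h, with 41.4, 26.9 and 50.5 CPM against 18.9, 11.4 and 12.1 CPM in NTC (1.49 ± 0.39, adjusted p = 0.0073). *MIOX4*, a myo-inositol oxygenase, gave 2.27, 0.540 and 1.23 CPM at 28 h against 0.293, 0.174 and 0.207 CPM (2.56 ± 0.52, adjusted p = 0.00076), and its change from 4 h was 4.80. In all 3 the lowest 28 h library exceeded the highest NTC library.

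Of the 18 lists, the clock genes had the largest share of calls after the small HSPs, with 6 of 19 higher and 1 lower. The plant clock is a loop in which morning factors (*CCA1*, *LHY*), daytime pseudo-response regulators (*PRR9*, *PRR7*, *PRR5*) and evening factors (*TOC1*, *GI*) act on each other in turn. *PRR7* gave 35.8, 20.1 and 19.1 CPM in NTC and 85.5, 55.8 and 85.3 CPM at 28 h (1.6 ± 0.31, adjusted p = 0.00051). *PRR9* went from 0.878, 0.378 and 0.592 to 4.08, 1.22 and 2.45 CPM (2.06 ± 0.44, adjusted p = 0.0012), and *PRR5* from 24.5, 17.795 and 20.1 to 42.2, 40.4 and 64.4 CPM (1.24, adjusted p = 0.003). All 3 pseudo-response regulators were higher in every 28 h library than in any NTC library. *AT3G54500*, the clock coactivator *LNK2*, gave 15.43, 7.36 and 9.18 CPM against 45.9, 35.4 and 58.4 CPM (2.13 ± 0.36, adjusted p = 9.9e-05). *FKF1*, a blue-light receptor of the flowering pathway, gave 16.5, 12.9 and 17.41 against 32.9, 30.8 and 34.9 CPM (1.08, adjusted p = 0.0025).

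*CCA1* itself rose from 5.83, 3.66 and 2.84 to 13.3, 6.77 and 13.9 CPM (1.46 ± 0.37, adjusted p = 0.0052), and its relative *RVE1* fell from 49.2, 35.0 and 32.6 to 17.1, 13.6 and 24.7 CPM (-1.08 ± 0.29, adjusted p = 0.0078); the sides did not overlap in either. *LHY*, *TOC1* and *GI* had log2 changes of 0.50, 0.28 and 0.34 and were not called. The 3 heated time points lie whole days apart. At 52 h *CCA1* was called lower than in NTC (-1.72). Of the 19 clock genes 0 were called higher and 4 lower there, beside 1.65% and 1.81% of all genes tested. In Col at 28 h 6 clock genes were called higher and 1 lower, the same counts as in the double mutant. How far the NTC harvest differed in time of day was not tested. The fall of *RVE1* was lost without 28 h replicate 2 or NTC replicate 1.

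**Figure D3:**
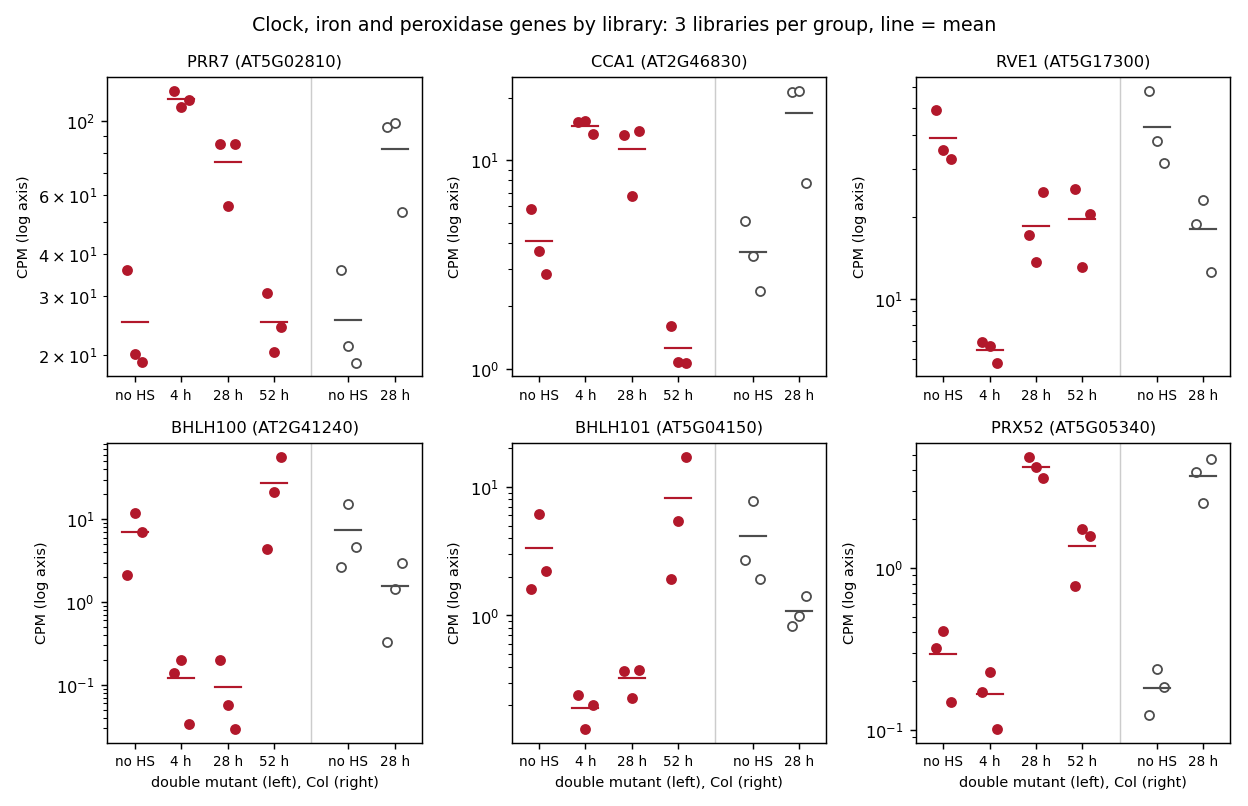
Levels of 3 clock genes (*PRR7*, *CCA1*, *RVE1*), 2 iron regulators (*BHLH100*, *BHLH101*) and the peroxidase *PRX52* in CPM (log axis), 1 point per library, with lines at the group means; filled points are unheated, 4 h, 28 h and 52 h samples of *hsfa2 hsfa3*, open points Col without heat and at 28 h. *BHLH100* at 28 h (0.0292 to 0.198 CPM) lies below its unheated points (2.11 to 11.9 CPM) and returns above them in part at 52 h (4.37 to 56.5 CPM).

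Regulators of the iron deficiency response were lower at 28 h. Of 14 iron homeostasis genes 0 rose and 4 fell, with a median of -0.79. At an unadjusted p under 0.05, 9 were lower, beside 3507 of all 21107 genes. The 4 that fell are the subgroup Ib bHLH factors, which switch on iron uptake in iron-starved roots. *BHLH100* gave 2.11, 11.9 and 6.93 CPM in NTC and 0.198, 0.0569 and 0.0292 CPM at 28 h (-6.14 ± 1.31, adjusted p = 0.0011), the largest fitted decrease among the listed genes. For *bHLH38* the values were 1.35, 4.3 and 2.01 against 0.198, 0.171 and 0.205 CPM (-3.71 ± 0.96, adjusted p = 0.0061). *BHLH101* gave 1.61, 6.19 and 2.22 against 0.368, 0.227 and 0.380 CPM (-3.35 ± 0.83, adjusted p = 0.0044), and *bHLH39* 1.58, 4.71 and 1.66 against 0.567, 0.682 and 0.409 CPM (-2.25 ± 0.83, adjusted p = 0.0496). NTC replicate 2 was the highest library for all 4, and without it *BHLH101* (-2.55, adjusted p = 0.0585) and *bHLH39* were no longer called, although no 28 h value reached the NTC range. The call of *bHLH39* was also lost without any 1 of the 28 h libraries (adjusted p between 0.0813 and 0.142) and with no filter on low counts (0.0538). *IRT1*, the root iron transporter, had a log2 change of -1.96 (adjusted p = 0.21). In Col the list gave 2 lower calls at 28 h, and no member differed between the genotypes in the test described below.

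The other steep falls were in metabolic and wall genes. *CYP716A2*, a cytochrome P450 of triterpene oxidation, fell from 8.49, 7.04 and 4.83 to 0.652, 0.426 and 0.263 CPM (-3.91 ± 0.57, adjusted p = 1.3e-05). *XTH21*, a xyloglucan-modifying enzyme of growing roots, fell from 6.76, 5.87 and 5.59 to 0.964, 0.739 and 0.292 CPM (-3.18 ± 0.39, adjusted p = 1.2e-06). In both the lowest NTC library was several times the highest 28 h library. *LPAT3*, a lysophosphatidic acid acyltransferase, gave 1.32, 1.51 and 1.15 against 0.198, 0.114 and 0.175 CPM (-3.0 ± 0.59, adjusted p = 0.00054), and *SWEET14*, a sugar transporter, 1.82, 4.48 and 5.68 against 0.283, 1.02 and 0.146 CPM (-3.03 ± 0.66, adjusted p = 0.0014). *TAT3*, a jasmonate-responsive tyrosine aminotransferase, was uneven without heat, at 0.586, 4.80 and 4.53 CPM, and even at 28 h, at 0.283, 0.256 and 0.263 CPM (-3.61 ± 0.89, adjusted p = 0.0043).

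Flavonoid genes had the lowest list median, -0.99 over 15 tested members of 16, with 0 higher and 3 lower. Chalcone synthase, the entry enzyme (*TT4*), gave 272, 419 and 339 CPM in NTC and 65.3, 209 and 80.0 CPM at 28 h (-1.54 ± 0.44, adjusted p = 0.012). *FLS1*, the flavonol synthase, gave 47.2, 74.4 and 74.8 against 15.2, 42.2 and 22.3 CPM (-1.30 ± 0.38, adjusted p = 0.015), and *GL3*, a bHLH partner of the pigment MYBs, 2.87, 2.53 and 1.86 against 0.737, 1.31 and 1.37 CPM (-1.09 ± 0.34, adjusted p = 0.023). The late anthocyanin genes varied within both groups by more than between them. *DFR* gave 1.67, 27.6 and 23.2 CPM in NTC and 0.255, 25.3 and 0.409 CPM at 28 h (-1.01 ± 1.39, adjusted p = 0.64), and *LDOX* and *UF3GT* had the same order of libraries. All 3 calls were lost without 28 h replicate 1 or NTC replicate 2, and 1 was left without 28 h replicate 3.

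Of 29 photosynthesis genes 0 rose and 4 fell. *RBCS2B*, a small subunit of Rubisco, gave 3442, 4770 and 4399 CPM in NTC and 2226, 2307 and 1390 CPM at 28 h (-1.09 ± 0.25, adjusted p = 0.002), while *RBCS1A*, another small subunit gene, had overlapping ranges (0.07, adjusted p = 0.76). *LHCB2.3*, a light-harvesting protein of photosystem II, gave 226, 156 and 186 against 58.1, 78.0 and 135 CPM (-1.07, adjusted p = 0.021). The stress-induced *ELIP2* (-1.59, adjusted p = 0.029) and *LHCB4.3* (-1.31, adjusted p = 0.01) made up the 4. Summed over the list the level was 7.106e+04 to 7.227e+04 CPM in NTC and 6.303e+04 to 7.71e+04 CPM at 28 h, so the ranges overlapped. The 4 calls fell to 1 without 28 h replicate 1, 28 h replicate 3 or NTC replicate 2.

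Of the salicylic acid defence genes 3 of 15 tested rose and 0 fell, all 3 from under 1 CPM. *SARD1*, an activator of salicylic acid synthesis, gave 0.117, 0.116 and 0.0888 CPM in NTC and 0.425, 0.711 and 0.877 CPM at 28 h (2.60 ± 0.48, adjusted p = 0.00026), and *PBS3*, an enzyme of that synthesis, 0.0878, 0.0872 and 0.0296 against 0.142, 0.540 and 0.380 CPM (2.31 ± 0.73, adjusted p = 0.025). *FMO1*, of systemic immunity, gave 0.410, 0.465 and 0.237 against 0.822, 0.967 and 0.906 CPM (1.27 ± 0.41, adjusted p = 0.027). *EDS5*, the chloroplast transporter of the same pathway, was lower in every 28 h library, at 8.50, 12.3 and 9.26 CPM against 18.4, 23.4 and 16.8 CPM, and just missed the fold limit (-0.96 ± 0.20, adjusted p = 0.00069). The 3 calls fell to 1 without 28 h replicate 2, 28 h replicate 3 or NTC replicate 3, or when at least 1 CPM in 3 libraries was required.

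Several programmes showed no called gene in the fit used here. Among 16 dehydration and cold genes edgeR called 0, and DESeq2 called 1 of each direction. At an unadjusted p under 0.05, 3 were higher and 2 lower, beside 3654 and 3507 of the 21107 genes tested. With the replicate block edgeR called 3 higher and 2 lower, and with only the groups compared 3 higher and 1 lower. Log2 changes ran from -1.05 for *P5CS1*, the proline synthesis enzyme, to 2.68 for *CBF1*, a cold-response factor with 0.482 to 0.682 CPM at 28 h against 0.0582 to 0.118 CPM in NTC (adjusted p = 0.08). Of 8 fatty acid desaturases edgeR and DESeq2 called 0, with 1 higher and 3 lower at an unadjusted p under 0.05. *FADA*, the plastid desaturase *FAD4*, was nonetheless lower beyond the spread, at 29.9, 29.3 and 28.5 CPM against 52.5, 51.0 and 50.9 CPM (-0.81 ± 0.12, adjusted p = 1.4e-05), under the fold limit. All 15 mitotic genes were uncalled by edgeR and DESeq2, with 0 at an unadjusted p under 0.05, and their sum overlapped at 131.7 to 165.4 CPM in NTC and 106.8 to 158.2 CPM at 28 h, whereas 12 of them were lower than in NTC at 4 h.

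Markers of cell types that a whole seedling holds were read beside these groups, since in bulk RNA fewer cells of a type and less RNA per cell cannot be told apart. The shoot markers were members of the photosynthesis list above, whose summed level overlapped between the sides, and were not read as a set of their own. Of the 8 root genes edgeR called 0, but 3 lower with the replicate block or with only the groups compared, and DESeq2 called 2 lower. All 8 were lower at an unadjusted p under 0.05, beside 3507 of all 21107 genes. In all 8 the sides did not overlap, and 18.6% of all genes likewise lay wholly below NTC. The root genes summed to 182.2 to 259.9 CPM in NTC and 104.9 to 122.7 CPM at 28 h. *EXPA18*, a root hair expansin, gave 28.0, 70.9 and 30.3 against 11.6, 18.6 and 11.3 CPM (-1.63 ± 0.63, adjusted p = 0.062, and 0.00184 with the block), and *SCR*, of the root endodermis, 50.5, 53.3 and 54.6 against 42.1, 43.9 and 42.6 CPM (-0.30, adjusted p = 0.012). Root markers thus moved with *XTH21* and the iron genes, and their part in those falls was not tested. Seed storage genes, which would mark lingering embryo RNA, had 0 of 8 tested members called by edgeR and DESeq2, 0 higher and 1 lower at an unadjusted p under 0.05, and summed to 1.806 to 3.426 CPM in NTC and 2.36 to 11.08 CPM at 28 h.

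Set against the other time points of the double mutant, the 28 h samples had left most of the early response. At 4 h 3203 genes (15.2%) were higher and 4185 (19.8%) lower than in NTC, and from 4 h to 28 h 3641 genes (17.3%) rose and 2867 (13.6%) fell. All of the early chaperone groups fell in that interval by count: 16 of 19 small HSPs (median -7.09), 23 of 26 larger chaperones and 11 of 19 HSFs, with 0 rising in any of the 3 lists. At 52 h 349 genes (1.65%) were higher and 382 (1.81%) lower than in NTC, 3.46% in either direction. *HSP18.2* was still called at 52 h, at 17.3, 23.9 and 14.6 CPM (3.84), and 3 small HSPs were called higher and 1 lower there, with a list median of 0.88. *PUM9* also remained above NTC at 52 h (4.04). None of the larger chaperones was called at 52 h, including *HSC70-1* and the HSP90 genes that fell at 28 h, and none of the 14 iron genes.

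In Col, 996 genes (4.72%) were higher and 889 (4.21%) lower at 28 h than without heat, 8.93% in either direction. Both comparisons have their own unheated controls, and the difference between the 2 changes was tested as an interaction, in which 54 genes (0.256%) changed more upward in the double mutant and 205 (0.971%) more downward; without 1 library at a time these were 5 to 185 and 68 to 606, lowest upward without 28 h replicate 1 or 3 and lowest downward without Col 28 h replicate 1, and with the replicate number as a block they were 228 and 535. Of the 19 small HSPs 16 were called higher in Col, with a median of 4.57, and 4 differed: *HSP18.2* (-4.50), *AT5G37670* (-3.45), *AT2G29500* (-2.11) and *AT2G19310* (-1.08); with the block 6 differed. *HSP18.2* stood at 5428, 2915 and 2464 CPM in Col at 28 h, far above the 91.9 to 129 CPM of the double mutant. *ATHSP22.0* gave 401, 288 and 286 CPM and *HSP21* 170, 128 and 76.3 CPM in Col at 28 h, far above the double mutant, but the differences of changes for *ATHSP22.0* (-5.40, adjusted p = 0.087) and *HSP21* (-8.31 ± 2.28, adjusted p = 0.06) missed the threshold; that of *HSP21* passed it with the block (0.041). For 14 of the 19 members all 28 h libraries of the double mutant lay below all 28 h libraries of Col, as they did for 11.8% of all genes tested. The summed small HSP level in Col at 28 h was 3388 to 6928 CPM.

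Of the 26 larger chaperones 8 differed, 14 with the block, all with the lower change in the double mutant. *HSA32*, which was not called in the double mutant, gave 40.2, 42.1 and 31.0 CPM in Col at 28 h (difference -2.60 ± 0.31, adjusted p = 3.6e-06). The 5 HSP70 and HSP90 genes that fell at 28 h were not among the 8. Of the regulators *MBF1C* differed (-1.57, adjusted p = 0.018), and *DREB2B* did so only with the block (-1.09, adjusted p = 0.003). *DREB2A* and *DREB2C* did not pass (-0.49 and -0.57). Among the 19 HSFs tested 1 differed, with the lower change in the double mutant. *GolS1* rose in both genotypes and less in the double mutant, with 242, 192 and 141 CPM in Col at 28 h (difference -2.84 ± 0.47, adjusted p = 0.00051). *MIPS2*, a second inositol phosphate synthase, also differed (-1.83, adjusted p = 8.6e-05). With the block 4 genes of their list differed, *GolS2* (-1.87) and *STS* (-3.05) included. *APX2* stood at 39.3, 34.9 and 32 CPM in Col at 28 h, against under 1 CPM in the double mutant (-7.19 ± 1.57, adjusted p = 0.015), a call lost without NTC replicate 1 (0.132) or NTC replicate 2 (0.0603). No clock or iron gene and none of the flavonoid genes differed between the genotypes in this test, except that with the block 1 clock gene, *LCL1*, did (0.86, adjusted p = 0.0197).

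**Figure D4:**
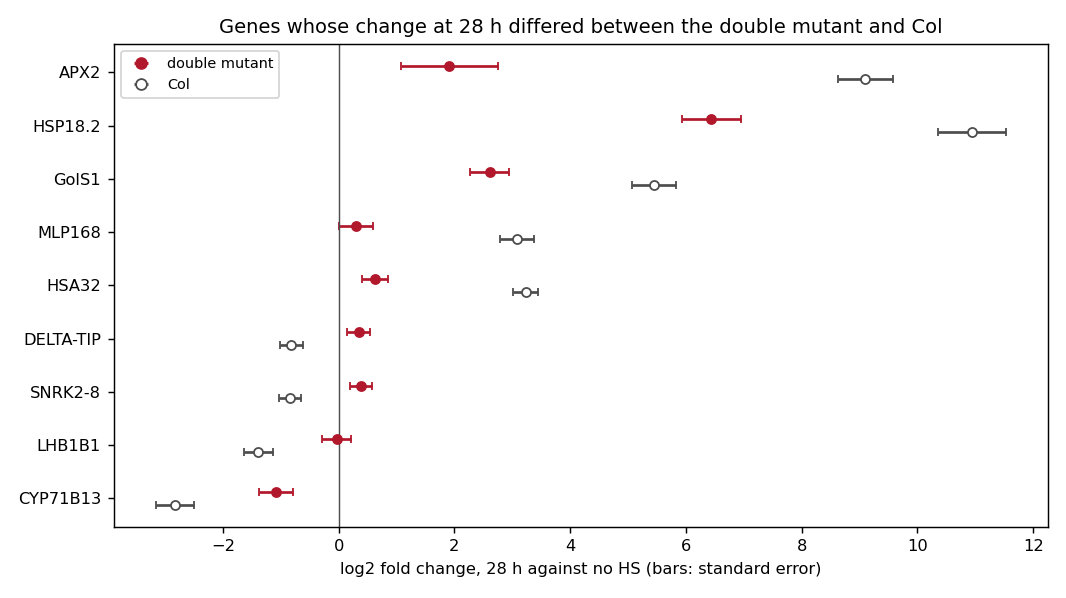
Log2 change at 28 h after ACC against no heat for 9 genes whose change differed between the genotypes, with bars of 1 standard error; filled points are *hsfa2 hsfa3* and open points Col. *APX2*, *HSP18.2*, *GolS1*, *MLP168* and *HSA32* lie lower in the double mutant, and *DELTA-TIP*, *SNRK2-8*, *LHB1B1* and *CYP71B13* lie higher.

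Among the promoters of all tested genes 89 of 21106 (0.4%) held the heat shock element printed above, against 10 of the 480 genes called higher at 28 h (2.1%) and 2 of the 714 called lower (0.3%). It was also in 77 of the 19912 not called (0.4%), so most genes with it were not called. The evening element AAATATCT, a short sequence of clock-controlled promoters searched on both strands, was found in 1043 of the 21106 promoters (4.9%), in 51 of the 480 genes called higher (10.6%), in 32 of the 714 called lower (4.5%) and in 5 of the 19 clock genes (26.3%). The G-box CACGTG was found in 7.4% of all promoters, 8.3% of those called higher and 7.8% of those called lower. The dehydration-responsive core ACCGAC, which DREB-type factors bind, was found in 5.2%, 5.8% and 2.8% in the same order. These shares are descriptions, and no test was made on them; none of the 4 motifs contains another.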

How the data were processed

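The authors extracted total RNA of seedlings, sequenced it as paired reads on a DNBseq platform (how messenger RNA was selected is not given in the sources used here), mapped the reads to the Arabidopsis genome (TAIR10) with STAR 2.5.1a and deposited the raw gene counts of each library as STAR wrote them. Which strand column was deposited is not given in the sources used here. STAR's counting leaves out reads that map to several places, so genes with near-identical copies may be undercounted. In the 6 libraries 2.35 to 2.54% of the pairs were unmapped, 1.51 to 1.87% multimapping, 1.15 to 1.69% outside genes and 1.96 to 2.12% ambiguous, and these rows stayed out of library sizes and tests. Of 33323 genes 32835 matched the RefSeq table of TAIR10.1 by locus and 488 did not; the 26712 protein-coding genes were kept.

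All 48 libraries were fitted together in 16 groups (32 residual degrees of freedom) with edgeR 4.0.16 in R 4.3.3: TMM scaling, edgeR's filter on low counts, which left 21107 genes, and the quasi-likelihood test without a replicate block. Genes were called at an adjusted p under 0.05 (Benjamini-Hochberg over all tested genes) and an absolute log2 change above 1, and for the difference from Col at the adjusted p alone. The standard error was taken from the change and its F statistic. DESeq2 1.42.0, which the authors used, other filters and scalings, and leaving out each library were alternatives. Replicates are separate biological samples per the labels. On simulated counts for this contrast (21037 genes) edgeR recovered 91 of 100 genes changed by 1.5 and 98 of 100 changed by 3 on the log2 scale, with 1 false call. The changed genes were drawn only from those above 1 CPM in NTC, and the counts held no replicate effect. Recovery of genes with lower NTC levels, or under such an effect, was not simulated. The comparison, the gene lists and the rule for named genes were chosen with earlier results of these data known. Named genes were the mutated pair, heat genes the study names, the 8 largest rises and 8 largest falls without overlap (among genes with a symbol and a mean of at least 1 CPM in the higher group), up to 4 called members of each list (or the 2 most abundant where none was called), 4 genes in each direction of the difference from Col and 4 with the largest rise from 4 h to 28 h. Further members named for a value of their own (*CAT1*, *BIP2*, *EDS5*, *FADA*, *RBCS1A*, *P5CS1*, *CBF1*, *DFR*, *EXPA18*, *SCR*, *MBF1C* and *MIPS2* among them) were chosen after their values were seen. Intervals and limits from counts cover counting error only.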

Additional observations from a re-analysis of the deposited data

Results flagged for a closer look

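For 9 named genes the change at 28 h differed between the double mutant and Col in the interaction test of edgeR's quasi-likelihood fit, which is what brought them here. The difference is the log2 change in the double mutant minus that in Col. *HSP18.2* (-4.50 ± 0.66, adjusted p = 8.6e-05), *APX2* (-7.19 ± 1.57, adjusted p = 0.015), *GolS1* (-2.84 ± 0.47, adjusted p = 0.00051) and *HSA32* (-2.60 ± 0.31, adjusted p = 3.6e-06) are described above and were among the heat genes the study names or that earlier results of these data already showed, so they are no independent evidence.

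*MLP168*, of the major latex protein family, gave 1.05, 1.19 and 1.57 CPM in NTC and 0.794, 2.27 and 1.61 CPM at 28 h in the double mutant (log2 change 0.29), whereas Col went from 1.36, 0.925 and 1.22 to 8.61, 9.11 and 12.1 CPM (3.09); the difference was -2.79 ± 0.41 (adjusted p = 8.6e-05). The ranges of the double mutant overlapped and those of Col were far apart.

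The other 4 genes had the higher change in the double mutant. *DELTA-TIP*, an aquaporin of the vacuole membrane, gave 1691, 1240 and 1355 CPM in NTC and 1919, 1293 and 2235 CPM at 28 h, and 962, 1096 and 665 CPM in Col at 28 h (1.16 ± 0.28, adjusted p = 0.029). *SNRK2-8*, a kinase of osmotic stress signalling, gave 9.72, 10.4 and 10.4 CPM against 18.1, 10.3 and 11.6 CPM, and 7.08, 4.96 and 6.37 CPM in Col at 28 h (1.23 ± 0.26, adjusted p = 0.013). *LHB1B1*, a light-harvesting protein of photosystem II, gave 1134, 1295 and 1336 against 1032, 867 and 1789 CPM, and 422, 727 and 576 CPM in Col at 28 h (1.36 ± 0.36, adjusted p = 0.045). In these 3 the double mutant libraries overlapped between the treatments. *CYP71B13*, a cytochrome P450, fell in both genotypes, from 4.27, 4.42 and 3.70 to 2.69, 1.11 and 2.05 CPM in the double mutant (-1.08) and to 0.665, 0.511 and 0.559 CPM in Col (-2.83), a difference of 1.74 ± 0.43 (adjusted p = 0.033). All 4 missed the threshold when only the groups compared were fitted (adjusted p between 0.17 and 0.276). Of the 12 fits that left out 1 library, *LHB1B1* lost the call in 9, *CYP71B13* in 7, *DELTA-TIP* in 6 and *SNRK2-8* in 1 (without 28 h replicate 1, 0.0823), and *LHB1B1* also missed it with no filter on low counts (0.0543).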

How the results depend on the processing

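Between 28 h and no heat, 480 genes were called higher and 714 lower; DESeq2 gave 488 and 770 (463 and 706 shared), other scalings, filters and the fit of only the compared groups stayed within 1.5 times, and an adjusted p under 0.01 left 424 lower. Without the fold limit there were 2069 and 2139, and leaving out 1 library gave 308 to 553 and 389 to 743. Against 4 h, dropping the fold limit gave 7215 and 6851, and leaving out 1 library 3397 to 3657 and 2815 to 2918. The difference from Col, 54 upward and 205 downward, was the least stable count: 169 and 333 by DESeq2, 31 upward with no filter on low counts, 5 and 39 with only the groups compared, 3 and 58 at an adjusted p under 0.01, 9 and 83 with an absolute difference above 1, and 5 to 185 and 68 to 606 without 1 library. With the replicate number as a block, 574 genes were higher and 956 lower at 28 h than without heat (477 and 707 shared with the fit without it), and 228 and 535 differed from Col; the numbers do not pair the samples by label, and the correlation of same-numbered deviations was 0.332, 0.248 and -0.0112 between 28 h and no heat, with 28 h replicate 3 closer to NTC replicate 1 (0.0769), 0.332, -0.304 and -0.196 between the double mutant and Col at 28 h, and 0.526, 0.558 and 0.312 between them without heat.

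Among the named genes, 4 changed sign when 1 library was left out, none of them called: *HSP70* ranged from -0.59 to 0.57 and *CRA1*, a seed storage gene, from -0.21 to 1.90, both negative without 28 h replicate 1; *MLP168* from -0.085 (without 28 h replicate 2) to 0.61; and *LHB1B1* from -0.40 to 0.17, at 0.08, 0.17 and 0.02 without 28 h replicate 1, 28 h replicate 2 and NTC replicate 3. Of 72 called genes among the 96 named, 26 lost the call when 1 library was left out, 21 of them without 28 h replicate 1, 17 without NTC replicate 2 and 14 without 28 h replicate 3, and 3 under another tool, filter, scaling or the block. The cause was not tested. Of the counts per list, 666 stayed within 1.5 times of the value given and 84 did not. Depth limits genes under about 1 CPM, where a few reads decide a fold change.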

Other observations

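The gene families here were chosen after their values were seen, by the wording of their annotation or locus, so their counts are descriptions. They are read against the 2.27% of all genes called higher and 3.38% called lower.

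Several gene families of the root surface and the cell wall held lower calls beyond the lists. Of 19 dirigent-like genes, which guide the coupling of phenolic radicals in lignans and lignin, 0 rose and 11 fell, 8 to 11 when 1 library was left out. *AT4G11210* gave 50.4, 44.5 and 42.5 CPM in NTC and 9.41, 10.4 and 6.66 CPM at 28 h (-2.37 ± 0.47), and *AT4G11190* (-2.05) and *AT5G42500* (-1.93) followed. Of 29 arabinogalactan protein genes 9 fell and 1 rose, with *AGP13* at 16.6, 27.0 and 21.73 against 3.88, 4.04 and 3.30 CPM (-2.54) and *AGP30*, expressed in roots, at 64.2, 51.1 and 56.8 against 13.2, 10.6 and 11.8 CPM (-2.28). The groups did not overlap in *AT4G11210*, *AGP13* or *AGP30*. Of 15 genes annotated as root hair specific 7 fell, among them *RHS6* (-1.72), *RSH3* (-1.66) and *RHS16* (-1.5). That count ranged from 1 (without 28 h replicate 3 or NTC replicate 2) to 7 without 1 library, and was 13 with only the groups compared and 14 with the replicate block. The root markers described above were lower in the same libraries, and their part in these falls was not tested.

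Class III peroxidases went both ways: of 55 genes 4 rose and 12 fell, 7 without NTC replicate 2. *PRX52* was joined among the risers by *AT2G18150*, at 1.58, 1.28 and 1.1 CPM in NTC and 10.8, 14.0 and 11.3 CPM at 28 h (3.19), and by *AT4G36430*, at 4.51, 3.75 and 4.32 against 27.6, 28.2 and 29.9 CPM (2.77). *RCI3* fell from 103, 154 and 108 to 34.7, 36.1 and 32.5 CPM (-1.82). The replicates of the risers were close to each other on both sides.

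Among cysteine-rich receptor-like kinases 5 of 27 rose and 1 fell, with *CRK13* at 0.820, 0.669 and 0.710 CPM in NTC and 4.00, 3.72 and 4.09 CPM at 28 h (2.42 ± 0.27) and *CRK12* at a log2 change of 2.55. Of 63 genes annotated with an integrase-type DNA-binding domain, the AP2/ERF transcription factors, 10 rose and 2 fell, led by *AT4G28140* (3.76), *ERF53* (3.45) and *DREB19* (3.17); without 28 h replicate 1 there were 6 risers. No member of any of these families differed from Col in the interaction test without a replicate block.

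Of 40 loci whose names begin with AT2G07, 28 rose and 0 fell, with a median log2 change of 2.91. Their summed level hardly moved, at 325 to 365 CPM in NTC and 359 to 391 CPM at 28 h, with overlapping ranges. The loci lie in a part of chromosome 2 that carries a copy of the mitochondrial genome. Reads that map to several places are left out of the counts, so these loci were counted from uniquely placed reads alone and are uncertain. The cause of the rise was not tested. *AT2G07739* gave 0.439, 0.349 and 0.237 CPM in NTC and 6.18, 3.04 and 5.90 CPM at 28 h (3.87), and *AT2G07687* 0.117, 0.145 and 0.118 against 1.25, 1.36 and 1.52 CPM (3.40). At 4 h 32 of the 40 were called higher and 4 lower than in NTC, at 52 h 8 higher, and in Col at 28 h 26 higher, with none differing between the genotypes. Only 15 were called at 28 h when only the groups compared were fitted.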
